A study of Mus musculus with 12 samples.

Results

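The mitochondrially encoded mRNAs described here are the 9 transcripts mt-Nd1, mt-Nd2, mt-Nd4, mt-Nd5, mt-Cytb, mt-Co1, mt-Co2, mt-Co3 and mt-Atp6. They were taken by gene symbol. A contig is 1 reference sequence on which reads were counted, and each of the 9 genes had 1 contig among the 12114 contigs of the count table. The RNA came from spermatids of adult male mice, sorted by flow cytometry on DNA content, red fluorescence and light scatter, and was sequenced as native molecules on nanopores after selection on oligo(dT) beads. Round spermatids (RS) are young haploid germ cells, and elongated spermatids (ES) are what they become as the nucleus condenses and the flagellum grows. The 4 groups were RS and ES of Tent5c wt/wt males and RS and ES of Tent5c dcat/dcat males, with 3 libraries each and RNA of 3 mice pooled in each library. RS and ES of a genotype were sorted from the same mice, so the stages are not separate sets of animals. The dcat allele encodes TENT5C without catalytic activity, in every cell of the animal, and TENT5C lengthens the poly(A) tails of RNA. The allele alters the protein, so the abundance of Tent5c reads gives no check of the genotype labels. The sort enriches for a stage and leaves some cells of other kinds.

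Mitochondrial DNA encodes subunits of the respiratory chain and of ATP synthase, and its genes are copied into long RNAs that run over many genes at once. The tRNAs that lie between most of the coding genes are cut out, which frees most of the mRNA ends. No tRNA follows mt-Atp6, whose next gene is mt-Co3, or mt-Nd5, whose next gene is mt-Nd6. The mitochondrial poly(A) polymerase MTPAP adds short tails to the mRNAs. The proteins are made inside the organelle and join subunits encoded in the nucleus. During spermiogenesis the mitochondria of the elongating spermatid gather around the base of the flagellum and form the sheath of the midpiece. The study read a relative gain from RS to ES as a sign of stability, because nuclear transcription ceases as spermatids elongate. Mitochondrial DNA is transcribed by its own polymerase and not by the nuclear ones.

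All 9 mRNAs lie on the 16299-base mitochondrial DNA (chromosome M, build GRCm38), on the plus strand, in 1 exon each. In map order they span 2751 to 3707 (mt-Nd1), 3914 to 4951 (mt-Nd2), 5328 to 6872 (mt-Co1), 7013 to 7696 (mt-Co2), 7927 to 8607 (mt-Atp6), 8607 to 9390 (mt-Co3), 10167 to 11544 (mt-Nd4), 11742 to 13565 (mt-Nd5) and 14145 to 15288 (mt-Cytb). The annotated transcripts begin at the start codon and end at the stop, so they carry no untranslated sequence. The start codon is ATG in 6 of the 9, GTG in mt-Nd1, ATA in mt-Nd2 and ATC in mt-Nd5. Of the 9 mRNAs, 6 end in an encoded stop codon and 3 end in a lone T that becomes the stop codon UAA once a poly(A) tail is added. The ends are shown because the reads were kept on their tails, and for these 3 mRNAs the tail is part of the reading frame. The last 24 bases follow in the DNA letters of the GENCODE transcripts, 5′ to 3′, with the letters of the stop in capitals. The first 3 lack a full stop codon and the other 3 hold one.
mt-Co3: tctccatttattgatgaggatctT
mt-Nd4: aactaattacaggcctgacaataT
mt-Cytb: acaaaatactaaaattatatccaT
mt-Co1: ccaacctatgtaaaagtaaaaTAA
mt-Co2: aactgatctgcttcaataattTAA
mt-Nd2: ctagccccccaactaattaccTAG

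Each direct RNA read is 1 molecule. Total counts ran from 337287 to 1359427 per library, and the 9 mRNAs together had 5937 to 17675 reads. The lowest count of any of them was 25 reads, for mt-Nd5 in ES wt/wt replicate 3, which was also the shallowest library. All 9 passed the filter for the test, as did 11831 contigs in all. Levels are given as CPM (reads scaled to a common library total) after TMM scaling, which sets libraries on a common scale under the assumption that most contigs do not differ. Changes were tested with edgeR's quasi-likelihood test, and q is its Benjamini-Hochberg adjusted p over all 11831 contigs. A contig was called at a q at or under 0.05. Nothing in counts per library tells fewer cells with a transcript from less of it per cell, and no value here is a number of molecules per cell.

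The sort was checked on marker genes. Markers of elongated spermatids (protamines, transition proteins and flagellar genes, 10 of 10 genes) summed to 21371 to 43975 CPM in the 6 RS libraries and to 219280 to 288650 CPM in the 6 ES libraries. Markers of round spermatids summed to 1164 to 1347 CPM in RS and to 1054 to 1211 CPM in ES, and these ranges overlap. Of 17 listed genes of meiotic spermatocytes, 12 were found. They summed to 1492 to 1710 CPM in RS and to 1264 to 1524 CPM in ES. These ranges overlap too, though within wt/wt the sums were lower in all ES libraries. The sums of markers of testicular somatic cells were higher in ES. Of 13 listed Leydig genes, 7 were found, and they summed to 14.9 to 45.4 CPM in RS and to 255 to 1013 CPM in ES. Insl3 alone had 8.30 to 31.9 CPM in RS and 151 to 539 CPM in ES. The study also places transcripts of Insl3 and Ptgds, both on the Leydig list, in ES, and found INSL3 protein only in Leydig cells. Of 15 Sertoli genes, 8 were found, with 21.4 to 68.0 CPM in RS and 261 to 546 CPM in ES. Among them Dhh did not rise, with 10.7 to 20.7 CPM in RS and 6.95 to 17.6 CPM in ES, ranges that overlapped. Of 14 listed genes of peritubular cells, macrophages and red blood cells, 2 were found (C1qb and Cd74). They summed to 4.15 to 10.6 CPM in RS and to 92.6 to 169 CPM in ES. The somatic lists are set beside the stage results because they move with stage, and their part in those results was not tested.

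Together the 9 mRNAs took a larger share of all reads in ES than in RS. The share was 1.30%, 1.42% and 1.30% in the 3 RS wt/wt libraries and 1.71%, 1.90% and 1.76% in the 3 ES wt/wt libraries. In dcat/dcat it was 1.40%, 1.47% and 1.19% in RS and 1.80%, 2.36% and 1.79% in ES. The lowest ES library stood above the highest RS library, and this held for all 9 mRNAs one by one in TMM-scaled CPM, where 21.1% of all contigs had all 6 ES libraries above all 6 RS libraries. The mean went from 1.34% ± 0.0698 (SD, n = 3) to 1.79% ± 0.0973 in wt/wt and from 1.36% ± 0.147 to 1.98% ± 0.330 in dcat/dcat, a ratio of 1.33 and 1.46. These shares are a sum over chosen genes and are given with no test. ES dcat/dcat replicate 2 had the highest share, and without it the dcat/dcat difference of 0.628 percentage points was 0.437.

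The denominator of these shares also changed with stage. The 10 most abundant contigs took 5.40% to 7.97% of all reads in RS and 19.0% to 22.4% in ES. Of the reads outside each library's 10 most abundant contigs, with the mitochondrial mRNAs kept in, the 9 mRNAs were 1.28% to 1.58% in RS and 2.13% to 2.93% in ES. On this base the gain from RS to ES was 0.801 percentage points in wt/wt and 1.01 in dcat/dcat, against 0.446 and 0.628 over all reads. mt-Co1 ranked as the 8th most abundant contig in all 6 RS libraries and as the 5th in 5 ES libraries and the 6th in 1. The ES library with the largest Leydig sum, dcat/dcat replicate 3 with 1013 CPM, had a mitochondrial share of 1.79%. The library with the largest share had a Leydig sum of 414 CPM and a Sertoli sum of 546 CPM. The latter was the highest Sertoli sum of the 12 libraries. Its sum of peritubular, macrophage and red blood cell markers, 169 CPM, was also the highest. These are single libraries, and the part of somatic cells in the share was not tested.

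The mRNAs differed widely in level among themselves, and in nearly the same order in every group. In RS wt/wt the order by CPM was mt-Co1, mt-Co2, mt-Co3, mt-Atp6, mt-Nd1, mt-Nd4, mt-Cytb, mt-Nd2 and mt-Nd5, from 3346 ± 113 CPM (SD, n = 3) for mt-Co1 to 39.8 ± 1.95 CPM for mt-Nd5. Between neighbours in this order, mt-Co3 and mt-Atp6 overlapped over the 3 libraries, as did mt-Nd1 and mt-Nd4, and the other neighbours did not. The order was the same in RS dcat/dcat, where mt-Co1 and mt-Co2 overlapped too. In ES of both genotypes mt-Cytb stood above mt-Nd4, though the libraries of this pair overlapped. Reads counted on near-identical nuclear copies, described below, are not in these levels. With them added, mt-Co3 had 1990 to 2114 CPM and mt-Atp6 1498 to 1882 CPM in RS wt/wt, and no longer overlapped. These 2 mRNAs did not overlap in RS dcat/dcat or ES wt/wt either, but did in ES dcat/dcat. Per kilobase of transcript, mt-Co2 led with 3980 CPM per kb in RS wt/wt and 7909 CPM per kb in ES wt/wt, because its 684 bases are fewer than the 1545 of mt-Co1, which had 2165 and 4570 CPM per kb. mt-Nd5 was last on this scale too, with 21.8 and 46.7 CPM per kb. Direct RNA reads run from the 3′ end and 1 read counts once whatever its length, so the values per kilobase are a second scale and not a correction.

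**Figure D1:**
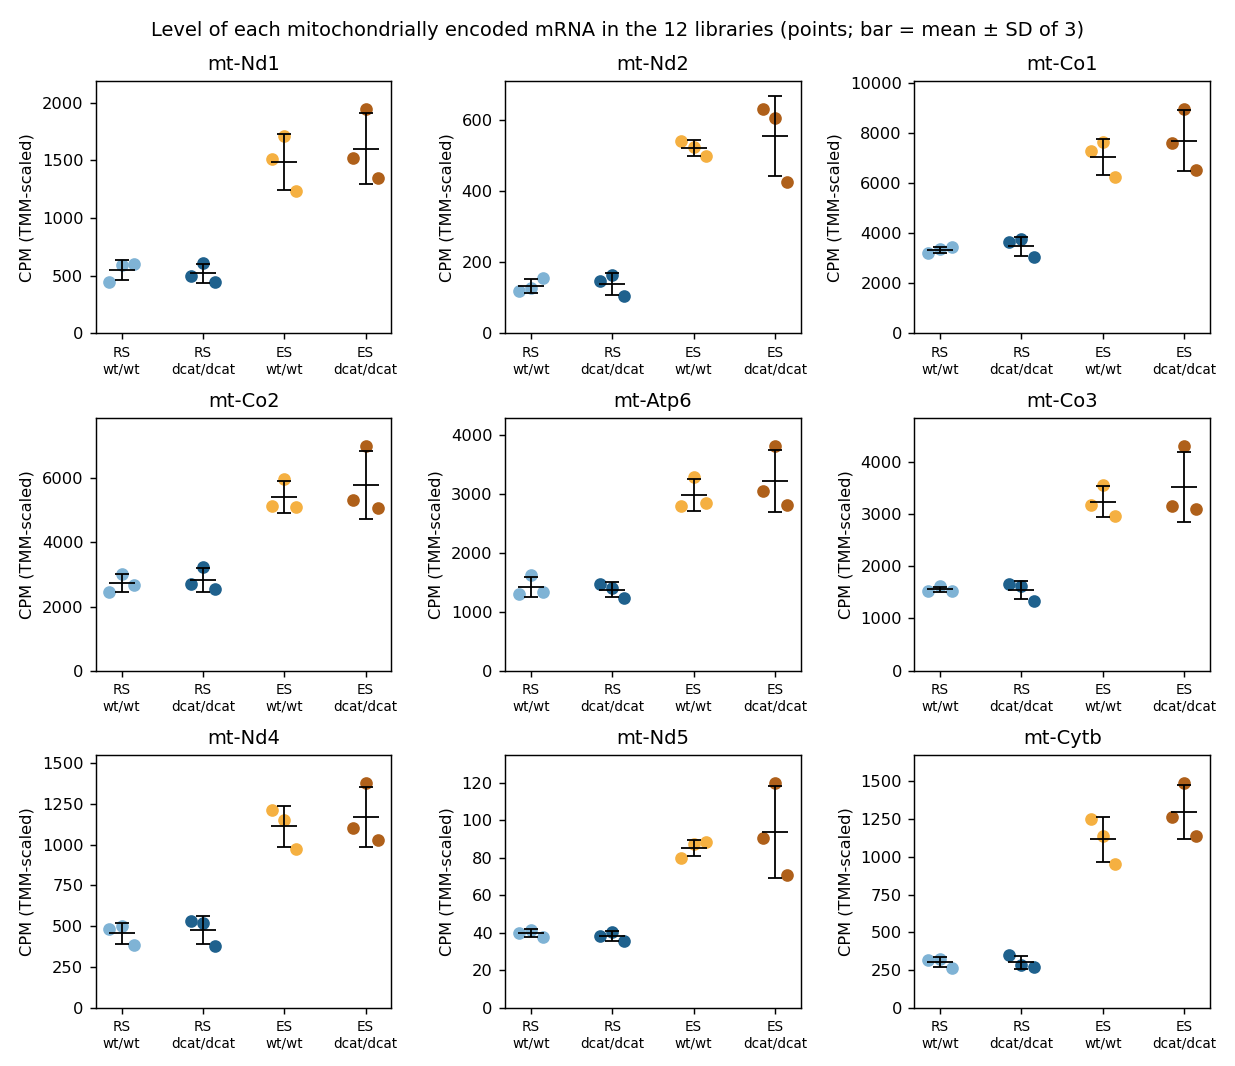
Level of each of the 9 mitochondrially encoded mRNAs, in CPM after TMM scaling (vertical axis, from 0, with its own range in each panel), in the 4 groups (horizontal axis). Points are the 3 libraries of a group and bars the mean ± SD; for each mRNA the 6 ES points sit above the 6 RS points, and wt/wt and dcat/dcat points of a stage overlap.

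The change from RS to ES was tested for each mRNA within each genotype. All 9 rose in wt/wt, from 1.99-fold for mt-Co2 to 3.86-fold for mt-Nd2, and all 9 rose in dcat/dcat, from 2.05-fold for mt-Co2 to 4.29-fold for mt-Cytb. Among all 11831 contigs, 23.8% were called higher in ES in wt/wt and 24.0% in dcat/dcat. The 3 ES libraries lay above the 3 RS libraries for 9 of 9 mRNAs in each genotype, against 25.9% of all contigs in wt/wt and 25.7% in dcat/dcat. The median log2 change of the 9 was 1.10 in wt/wt and 1.28 in dcat/dcat, beside −0.24 and −0.18 for all contigs. The 9 mRNAs come from shared precursor RNAs and the same libraries, so they are not 9 independent observations.

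The size of these changes depended on how libraries were scaled. With total counts as the only scaling, the median of all contigs moved to −0.96 in wt/wt and −0.85 in dcat/dcat, and the members' changes in wt/wt ran from 0.28 to 1.24 on the log2 scale. In wt/wt 7 of 9 were then called. mt-Co2 (log2 change 0.28, edgeR q = 0.0938) and mt-Nd5 (log2 change 0.38, edgeR q = 0.158) were not, and in dcat/dcat 9 of 9 were called. Over all contigs, 2812 of 4771 calls in wt/wt were toward ES with TMM scaling and 1953 of 7363 with total counts. Of the 11831 contigs tested with total counts, 1953 were called higher in ES in wt/wt and 1964 in dcat/dcat. All 9 changes kept their positive sign under both scalings in both genotypes.

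Complex IV, cytochrome c oxidase, passes electrons to oxygen, and its 3 largest subunits are encoded by mt-Co1, mt-Co2 and mt-Co3. mt-Co1, which encodes the catalytic subunit, had 3225, 3363 and 3449 CPM in RS wt/wt and 7293, 7646 and 6241 CPM in ES wt/wt. In dcat/dcat it had 3638, 3769 and 3054 CPM in RS and 7622, 8970 and 6542 CPM in ES. The stages did not overlap, and the log2 change was 1.08 ± 0.143 (SE) in wt/wt (edgeR q = 3.97e-05) and 1.15 ± 0.143 in dcat/dcat (q = 2.66e-05).

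mt-Co2, the subunit that takes electrons from cytochrome c, had 2468, 3029 and 2670 CPM in RS wt/wt and 5127, 5985 and 5117 CPM in ES wt/wt. The dcat/dcat values were 2687, 3243 and 2539 CPM in RS and 5313, 7002 and 5060 CPM in ES. Its log2 change of 0.99 ± 0.155 in wt/wt (edgeR q = 0.000166) was the smallest of the 9, and in dcat/dcat it was 1.04 ± 0.155 (q = 0.000118). By total counts the ES and RS libraries of mt-Co2 overlapped in both genotypes, and those of the other 8 mRNAs did not. The share of all contigs without overlap by total counts is not given here.

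mt-Co3, which encodes another core subunit, had 1527, 1613 and 1532 CPM in RS wt/wt and 3183, 3553 and 2971 CPM in ES wt/wt. In dcat/dcat the values were 1655, 1623 and 1339 CPM in RS and 3164, 4301 and 3104 CPM in ES. ES lay above RS in each genotype, with a log2 change of 1.06 ± 0.152 in wt/wt (edgeR q = 8e-05) and 1.19 ± 0.152 in dcat/dcat (q = 3.12e-05). Its coding sequence ends in the lone T shown above and begins on the last base of mt-Atp6.

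mt-Atp6 encodes a membrane subunit of ATP synthase (complex V) that forms part of the proton path. It had 1300, 1617 and 1337 CPM in RS wt/wt and 2785, 3281 and 2848 CPM in ES wt/wt. The dcat/dcat libraries had 1474, 1404 and 1236 CPM in RS and 3039, 3805 and 2807 CPM in ES. The log2 change was 1.07 ± 0.152 in wt/wt (edgeR q = 7.18e-05) and 1.23 ± 0.152 in dcat/dcat (q = 2.48e-05), close to that of mt-Co3, the next gene on the DNA.

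mt-Cytb encodes cytochrome b, the 1 subunit of complex III that comes from mitochondrial DNA. It had 315, 325 and 262 CPM in RS wt/wt and 1253, 1139 and 955 CPM in ES wt/wt. The dcat/dcat libraries had 351, 287 and 267 CPM in RS and 1262, 1488 and 1136 CPM in ES. Its lowest ES value was 955 CPM and its highest RS value 351 CPM, with a log2 change of 1.89 ± 0.173 in wt/wt (edgeR q = 2.18e-06) and 2.10 ± 0.174 in dcat/dcat (q = 3.11e-06). These were the smallest q values of the 9 in each genotype.

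Complex I, NADH dehydrogenase, feeds electrons into the chain, and mt-Nd1, mt-Nd2, mt-Nd4 and mt-Nd5 encode membrane subunits of it. mt-Nd2 had 119, 127 and 156 CPM in RS wt/wt and 541, 522 and 497 CPM in ES wt/wt. In dcat/dcat it had 148, 165 and 105 CPM in RS and 630, 606 and 425 CPM in ES. The stages did not overlap, and the log2 change was 1.95 ± 0.209 in wt/wt (edgeR q = 6.02e-06) and 1.99 ± 0.210 in dcat/dcat (q = 7.14e-06).

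mt-Nd1, the first coding gene after the ribosomal RNAs, had 446, 594 and 604 CPM in RS wt/wt and 1515, 1709 and 1233 CPM in ES wt/wt. In dcat/dcat it had 497, 611 and 450 CPM in RS and 1519, 1944 and 1343 CPM in ES. All ES values were above all RS values. The log2 change was 1.44 ± 0.192 in wt/wt (edgeR q = 4.11e-05) and 1.62 ± 0.193 in dcat/dcat (q = 1.76e-05).

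mt-Nd4 had 484, 500 and 383 CPM in RS wt/wt and 1211, 1153 and 973 CPM in ES wt/wt, with a log2 change of 1.29 ± 0.181 (edgeR q = 6.29e-05). In dcat/dcat it had 533, 517 and 380 CPM in RS and 1105, 1376 and 1028 CPM in ES, with a log2 change of 1.29 ± 0.181 (edgeR q = 6.35e-05). mt-Nd5 was the scarcest of the 9 mRNAs. It had 39.8, 41.7 and 37.8 CPM in RS wt/wt and 80.0, 87.3 and 88.1 CPM in ES wt/wt, with a log2 change of 1.10 ± 0.229 (edgeR q = 0.00153). In dcat/dcat mt-Nd5 had 38.4, 40.6 and 35.4 CPM in RS and 90.3, 120 and 70.8 CPM in ES, with a log2 change of 1.28 ± 0.229 (edgeR q = 0.000473).

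The 95% intervals of the largest and the smallest changes did not overlap. In wt/wt they ran from 1.53 to 2.26 for mt-Cytb and from 1.50 to 2.40 for mt-Nd2, against 0.66 to 1.32 for mt-Co2 and 0.77 to 1.38 for mt-Co1. In dcat/dcat the interval was 1.73 to 2.47 for mt-Cytb and 0.70 to 1.37 for mt-Co2. No test of one mRNA against another was run.

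**Figure D2:**
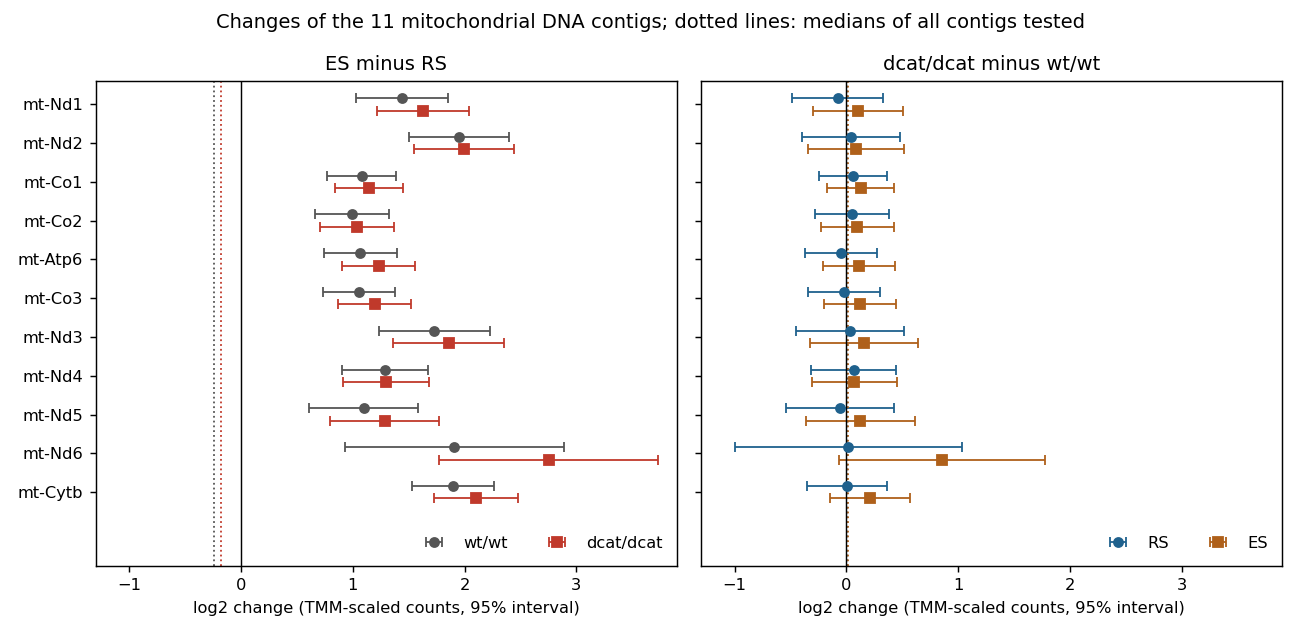
Log2 change with its 95% interval (horizontal axis) for the 11 contigs of mitochondrial DNA (vertical axis, in map order), from RS to ES in each genotype (left) and from wt/wt to dcat/dcat in each stage (right). Dotted lines mark the median of all contigs tested; in the left panel each interval lies above 0, with mt-Nd2, mt-Cytb, mt-Nd3 and mt-Nd6 farthest to the right, and in the right panel each interval includes 0.

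The composition of the mitochondrial reads, which does not depend on the scaling between libraries, did not overlap between the stages for mt-Cytb, mt-Nd2 and mt-Nd1. mt-Cytb made up 2.46% to 3.19% of the reads of the 9 mRNAs in the 6 RS libraries and 4.54% to 5.45% in the 6 ES libraries. mt-Nd2 made up 1.11% to 1.50% in RS and 1.97% to 2.65% in ES. mt-Nd1 made up 4.50% to 5.79% in RS and 5.90% to 6.82% in ES. mt-Co2 went the other way, from 24.4% to 27.8% in RS to 22.3% to 24.5% in ES, and its RS and ES ranges met between 24.4% and 24.5%, though they did not overlap within either genotype.

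mt-Co1 stayed the largest part in both stages, with 30.0% to 33.1% in RS and 29.8% to 32.1% in ES. Over all 12 libraries the ranges of mt-Co3, mt-Atp6, mt-Nd4 and mt-Nd5 also overlapped between the stages, while within dcat/dcat mt-Co1 and within wt/wt mt-Co3 were lower in all ES libraries. As means, mt-Cytb went from 2.86% ± 0.334 (SD, n = 3) to 4.85% ± 0.519 in wt/wt and from 2.83% ± 0.364 to 5.21% ± 0.159 in dcat/dcat, and mt-Nd2 from 1.28% ± 0.193 to 2.27% ± 0.163 and from 1.29% ± 0.158 to 2.22% ± 0.373. The 3 complex IV mRNAs together went from 71.4% to 74.1% of these reads in RS to 67.8% to 68.5% in ES, and the 4 complex I mRNAs went from 10.3% to 11.4% up to 13.3% to 14.6%. These parts are of 1 whole, so a gain in some fixes a loss in others, and they are given with no test. Reads counted on the nuclear copies described below are not in these parts. Between genotypes the ranges of all 9 parts overlapped in both stages.

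**Figure D3:**
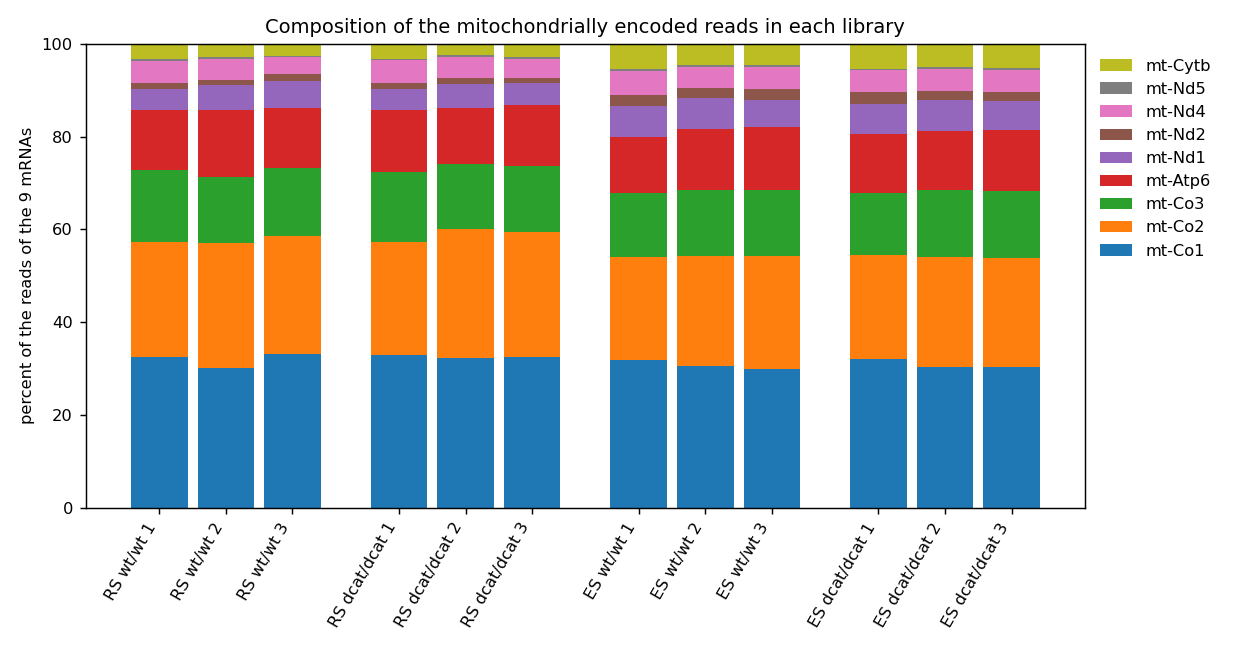
Percent of the reads of the 9 mitochondrially encoded mRNAs that each mRNA holds (vertical axis, 0 to 100) in each of the 12 libraries (horizontal axis). The bands of mt-Cytb and mt-Nd2 are wider in the 6 ES bars than in the 6 RS bars, and the 3 complex IV bands (mt-Co1, mt-Co2, mt-Co3) fill 67.8% to 68.5% of an ES bar and 71.4% to 74.1% of an RS bar.

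The comparison of genotypes asks whether the loss of TENT5C activity changes the abundance of these mRNAs. In RS, 0 of 9 were called, and the log2 differences between dcat/dcat and wt/wt ran from −0.08 for mt-Nd1 to 0.06 for mt-Nd4. The unadjusted p values of edgeR's quasi-likelihood test ran from 0.681 to 0.975, and 0 of 9 were under 0.05. In ES, 0 of 9 were called as well, with log2 differences from 0.07 for mt-Nd4 to 0.21 for mt-Cytb, unadjusted edgeR p values from 0.224 to 0.700 and 0 of 9 under 0.05. Of all 11831 contigs, 0% were called in either stage, and 0.828% in RS and 3.03% in ES had an unadjusted p under 0.05. DESeq2 called 0 of 9 in both stages. With the replicate number as a block, 3 contigs were called in RS and 1 in ES, none of them a member.

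A missed threshold does not show that the genotypes were alike, and the intervals give what size the data allow. The difference in ES was 0.13 for mt-Co1, with a 95% interval from −0.18 to 0.43 on the log2 scale, and 0.21 for mt-Cytb, with an interval from −0.14 to 0.57. In RS the interval of mt-Co1 ran from −0.24 to 0.36 and that of mt-Cytb from −0.36 to 0.37. The widest were those of mt-Nd5, with −0.54 to 0.42 in RS and −0.36 to 0.61 in ES. With total counts as the only scaling, mt-Cytb had 803 to 931 CPM in ES wt/wt and 944 to 1188 CPM in ES dcat/dcat. These ranges did not overlap, and mt-Cytb was still not called. With TMM scaling its ES libraries overlapped between genotypes. The share of all contigs that do not overlap in this comparison is not given here, so nothing is drawn from this separation. All 9 estimates in ES were positive. Without ES dcat/dcat replicate 2, 3 were positive and 6 negative, with values from −0.09 to 0.10.

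That library stood high for each of the 9 mRNAs. In ES dcat/dcat replicate 2 the log2 levels of 9 of 9 were above their group mean, by a median of 0.25, and in replicate 3 of the same group 0 of 9 were. ES wt/wt replicate 2 had 9 of 9 above its group mean and RS dcat/dcat replicate 3 had 0 of 9. Most were above the group mean in RS wt/wt replicate 2 (8 of 9) and in RS dcat/dcat replicates 1 (7 of 9) and 2 (8 of 9). In ES wt/wt replicate 3 and ES dcat/dcat replicate 1, 1 of 9 was above it. The 9 were more mixed in RS wt/wt replicates 1 and 3 (3 of 9 above) and in ES wt/wt replicate 1 (5 of 9). The pooled spread within groups was 0.16 (SD, log2 scale) for mt-Co1 and 0.25 for mt-Nd2. The stage by genotype interaction was called for 0 of 9, with estimates from 0.01 to 0.21 and unadjusted edgeR p values from 0.398 to 0.982. At unadjusted p, 1.44% of all contigs were under 0.05 in this test.

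The other coding genes of mitochondrial DNA in the count table were mt-Nd3 and mt-Nd6, both for complex I. mt-Nd3 (9459 to 9806, plus strand) had 166 to 245 CPM in RS and 482 to 979 CPM in ES, with a log2 change of 1.73 ± 0.231 in wt/wt (edgeR q = 4.18e-05) and 1.86 ± 0.232 in dcat/dcat (q = 2.6e-05). mt-Nd6 (13552 to 14070) is the coding gene on the minus strand. It had 18.2 to 34.0 CPM in RS, then 67.4, 146 and 81.1 CPM in the ES wt/wt libraries. ES dcat/dcat libraries had 71.8, 314 and 158 CPM. ES lay above RS, with log2 changes of 1.91 ± 0.460 in wt/wt (edgeR q = 0.00419) and 2.75 ± 0.459 in dcat/dcat (q = 0.000277). The dcat/dcat difference of mt-Nd6 in ES was 0.86, with a 95% interval from −0.06 to 1.78 and an unadjusted edgeR p of 0.0659, and the 2 genotypes overlapped. mt-Nd5 and mt-Nd6 share 14 bases on opposite strands, and the sources used here do not state whether strand was used in counting, so reads of one and of RNA antisense to the other cannot be told apart.

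Near-identical nuclear contigs also had reads. A copy of mitochondrial DNA lies on chromosome 1, minus strand, between 24611535 and 24616197, and 6 of its annotated pseudogenes had contigs in the table. They match mt-Co1 (Gm29216, over the last 31.3% of the gene), mt-Co2 (Gm28661), mt-Atp6 (Gm10925), mt-Co3 (Gm28437), mt-Nd3 (Gm28438) and mt-Nd4 (Gm28439, over the first 63.6%) at 99.7% to 100% identity. Where gene and copy align, reads are nearly or wholly the same in sequence, so the counts of both are uncertain, and which of them the reads came from was not tested. For mt-Co1 and mt-Nd4 the copy lacks part of the gene, and a read that reaches into that part can be told apart. mt-Nd1, mt-Nd2, mt-Nd5 and mt-Cytb had no such copy in the table.

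The part of the reads that went to the copy was steady for some pairs and not for others. For mt-Co3 it was 21.8% to 25.2% in the 6 RS libraries and 20.1% to 25.4% in the 6 ES libraries. For mt-Atp6 it was 13.3% to 17.3% in RS and 12.1% to 15.96% in ES. For mt-Co2 it was 4.25% to 5.81% and 4.11% to 7.26%, and for mt-Nd4 2.18% to 4.14% and 1.46% to 3.16%. For mt-Co1 it was 4.42% to 7.56% in RS and reached 8.93% in ES wt/wt replicate 2 and 13.0% and 11.7% in ES dcat/dcat replicates 2 and 3. Over all 12 libraries the RS and ES ranges overlapped for all 6 copies, while within wt/wt the part of mt-Co3 was lower in all ES libraries. In ES that part did not overlap between genotypes, at 20.1% to 22.1% in wt/wt and 22.2% to 25.4% in dcat/dcat.

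Of the 6 copies, 5 were called higher in ES in wt/wt and 6 in dcat/dcat, with log2 changes from 0.77 (Gm28439, edgeR q = 0.103, not called) to 2.27 (Gm28438) in wt/wt and from 1.02 (Gm10925) to 1.88 (Gm29216) in dcat/dcat. Over all 11831 contigs 23.8% were called higher in wt/wt and 24.0% in dcat/dcat, and with total counts 1953 and 1964 contigs were. With total counts as the scaling, Gm29216, Gm28661, Gm10925 and Gm28437 lost the call in wt/wt, and Gm28439, Gm28438 and Gm10925 in dcat/dcat. Gm28439 in dcat/dcat also lost it without RS replicate 2 or 3 or ES replicate 2 or 3 of that genotype, and Gm28438 without ES dcat/dcat replicate 2. With the reads of each copy added to its member, 9 of 9 members were called in both genotypes, with log2 changes from 0.99 to 1.95 in wt/wt and from 1.06 to 2.10 in dcat/dcat. The part of mt-Co1 reads counted on Gm29216 was highest in the same ES dcat/dcat library, replicate 2, in which the members were highest.

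**Figure D4:**
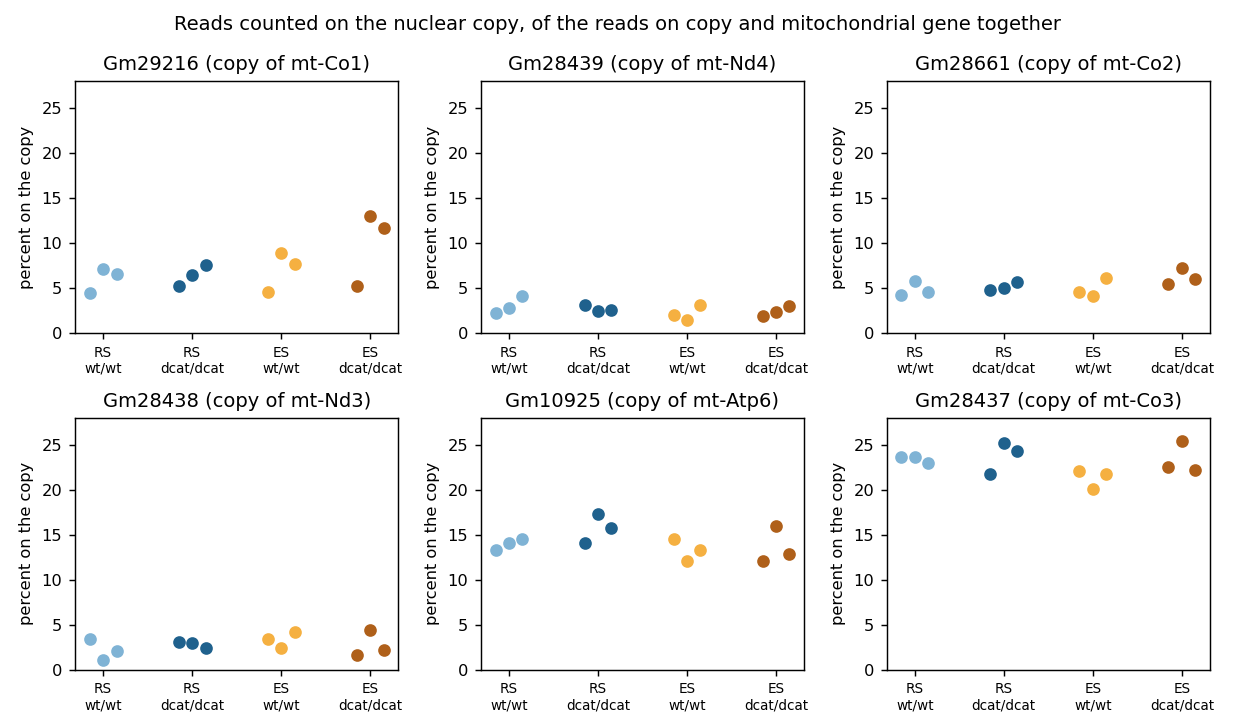
Percent of reads counted on a near-identical nuclear copy, of the reads on the copy and its mitochondrial gene together (vertical axis, 0 to 28), in the 4 groups (horizontal axis). Points are libraries; Gm28437 holds 20.1% to 25.4% of the mt-Co3 pair in all 12 libraries, and Gm29216 ranges from 4.52% to 13.0% of the mt-Co1 pair in ES.

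The subunits that the nucleus encodes for the same complexes did not move as a block with the mitochondrial ones. The lists held 128 contigs of 84 genes. In wt/wt 21 contigs rose, 36 fell and 71 did not pass the test, with a median log2 change of −0.30 beside −0.24 for all contigs, and in dcat/dcat 23 rose, 35 fell and 70 did not pass, with a median of −0.24 beside −0.18. Over all contigs 23.8% were called higher and 16.6% lower in wt/wt, against 24.0% and 17.0% in dcat/dcat. With total counts 8 rose and 70 fell in wt/wt, against 8 and 69 in dcat/dcat. The medians were −1.01 and −0.91, beside −0.96 and −0.85 for all contigs. Of all 11831 contigs, 1953 rose and 5410 fell in wt/wt with that scaling, against 1964 and 4995 in dcat/dcat. With the stricter filter (at least 10 counts in every library) 74 nuclear contigs were left. Of these 6 rose and 48 fell in wt/wt, against 12 and 44 in dcat/dcat. Under that filter 1241 rose and 1347 fell of all 3719 contigs in wt/wt, against 1245 and 1317 in dcat/dcat. The summed level of the 128 nuclear contigs was 17388 to 20304 CPM in RS and 14438 to 16574 CPM in ES. That of the 9 mitochondrial mRNAs was 9406 to 11659 CPM in RS and 20923 to 29610 CPM in ES.

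Among nuclear complex I contigs 7 rose and 17 fell of 54 in wt/wt, and 2 and 29 with total counts. A contig of Ndufa13, an accessory subunit, rose by 1.99 ± 0.187 on the log2 scale (edgeR q = 2.47e-06), and Ndufa6 fell by 1.07 ± 0.180 (q = 0.000303). Complex II, which has no mitochondrially encoded subunit, had 0 rising and 1 falling of 4 (4 falling with total counts), a contig of Sdhc with −1.10 ± 0.301 (edgeR q = 0.00917) whose call was lost without ES wt/wt replicate 2. In complex III 2 rose and 4 fell of 13 (0 and 9 with total counts), with a contig of Uqcrq at 0.73 ± 0.188 (edgeR q = 0.00642) and Uqcrb at −0.83 ± 0.202 (q = 0.00438). The call on Uqcrq was lost with total counts, with the stricter filter and with the contigs of the gene summed.

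In complex IV 2 rose and 9 fell of 21, with 0 and 15 by total counts and 0 and 10 of 12 under the stricter filter. A contig of Cox5a fell by 0.90 ± 0.147 on the log2 scale (edgeR q = 0.000234). The contig of Cox8a, with 6 to 23 reads per library, rose by 1.16 ± 0.366 (edgeR q = 0.0200). This call on Cox8a was lost with total counts and without RS wt/wt replicate 1 or 3. In complex V 9 rose and 4 fell of 34 (5 and 12 with total counts), with a median of 0.26 in wt/wt that was −0.46 with total counts and −0.03 with the stricter filter. A contig of Atp5mpl rose by 2.92 ± 0.264 (edgeR q = 2.03e-06). A contig of Atp5b, which encodes the catalytic beta subunit, fell by 1.02 ± 0.177 (edgeR q = 0.000378). Cytochrome c, the carrier between complexes III and IV, has a somatic gene and a testis gene. The somatic Cycs rose by 1.98 ± 0.324 (edgeR q = 0.000236), and the testis form Cyct fell by 0.91 ± 0.286 (q = 0.0194), a call lost without RS wt/wt replicate 2 and without ES wt/wt replicate 2 or 3.

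**Figure D5:**
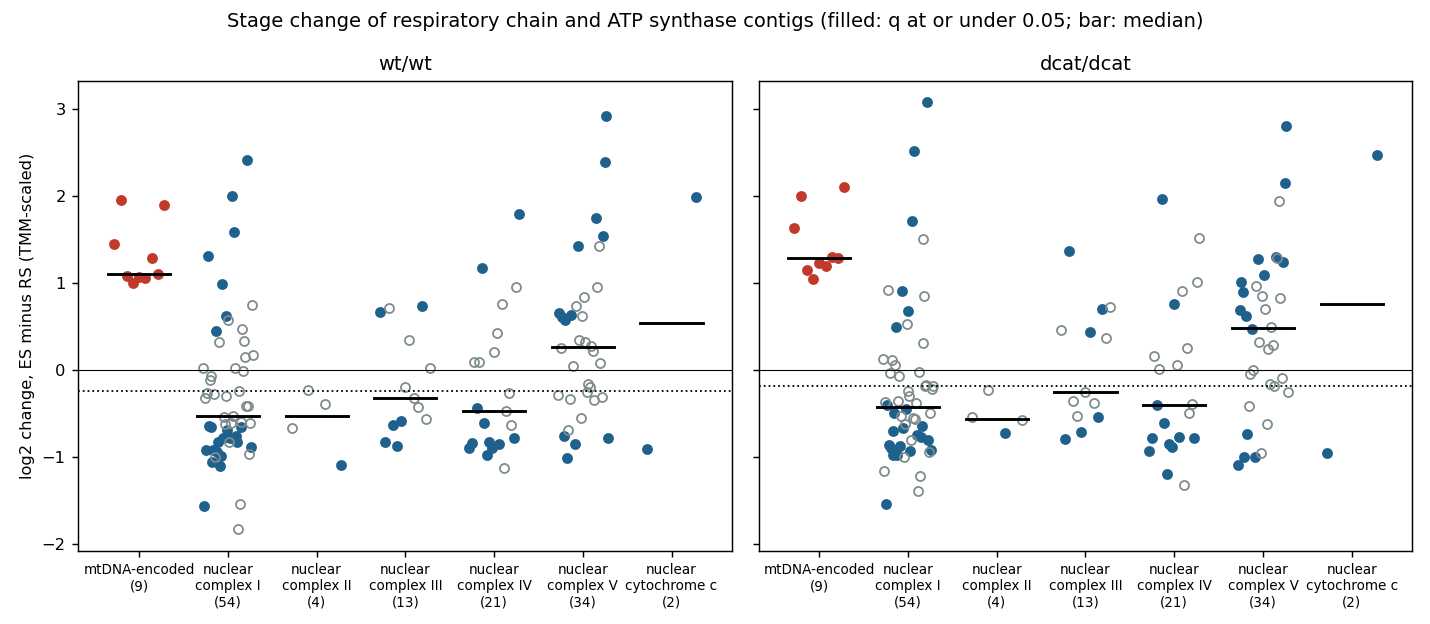
Log2 change from RS to ES (vertical axis) of the 9 mitochondrially encoded mRNAs and of the nuclear contigs for complexes I to V and cytochrome c (horizontal axis, number of contigs in brackets), in wt/wt (left) and dcat/dcat (right). Filled points passed a q of 0.05, bars are medians of a list and the dotted line is the median of all contigs; the mitochondrial points all lie near or above 1, while nuclear points lie on both sides of 0.

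Genes that transcribe mitochondrial DNA and handle its RNA were read from the same fit. Of 12 contigs of 8 genes for transcription and copying of mitochondrial DNA, 3 rose and 3 fell in each genotype. Over all contigs the shares higher and lower were 23.8% and 16.6% in wt/wt, against 24.0% and 17.0% in dcat/dcat. With total counts 3 rose and 8 fell in wt/wt, against 3 and 7 in dcat/dcat. With that scaling 1953 of all 11831 contigs rose and 5410 fell in wt/wt, against 1964 and 4995 in dcat/dcat. TFAM packs mitochondrial DNA and helps start its transcription. One Tfam contig (ENSMUST00000105432) had 67.2, 92.9 and 112 CPM in RS wt/wt and 725, 687 and 455 CPM in ES wt/wt, a log2 change of 2.78 ± 0.258 (edgeR q = 2.37e-06), and the Tfam contig with most reads (ENSMUST00000145220) changed by 2.88 ± 0.314 (q = 6.98e-06). Both of these rises are of the same gene, so they are not rises of separate genes in the list. A further Tfam contig (ENSMUST00000092430) is also in the list, and its values are not given here. Which form of the protein each Tfam contig encodes was not tested. Mterf3, which represses mitochondrial transcription, fell by 0.99 ± 0.234 on the log2 scale (edgeR q = 0.00359).

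Of 17 contigs of 12 genes for processing, tailing and decay of mitochondrial RNA, 0 rose and 5 fell in wt/wt and 0 rose and 3 fell in dcat/dcat. With total counts 0 rose and 13 fell in wt/wt, against 0 and 10 in dcat/dcat. With that scaling 5410 of all 11831 contigs fell in wt/wt and 4995 in dcat/dcat. With TMM, 16.6% of all contigs were called lower in wt/wt and 17.0% in dcat/dcat. Slirp, which binds mitochondrial mRNAs together with LRPPRC, fell by 0.98 ± 0.197 (edgeR q = 0.00114), from 251 to 336 CPM in RS to 121 to 167 CPM in ES. Mtpap, the mitochondrial poly(A) polymerase, had 9.44 to 20.7 CPM in RS and 0 to 11.6 CPM in ES, on 0 to 25 reads per library. Its change in wt/wt was −2.08 ± 0.713 (edgeR q = 0.0304), lost with DESeq2 (q = 0.0571) and without RS wt/wt replicate 1 or ES wt/wt replicate 2 or 3, and in dcat/dcat it was −0.82 (edgeR q = 0.292). Lrpprc, at 7.05 to 22.4 CPM, did not pass the test in wt/wt, with −0.78 ± 0.421 (edgeR q = 0.156). It was called with total counts (−1.49, edgeR q = 0.00645). Of 5 contigs of translation factors, 0 rose and 0 fell in wt/wt and 0 rose and 1 fell in dcat/dcat, and with total counts 1 fell in wt/wt and 2 in dcat/dcat. In neither stage was any contig of these lists called between genotypes.

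The contigs whose pattern over the 12 libraries was most like that of the members were found by the root mean square difference between centred log2 levels. Of 3405 contigs outside mitochondrial DNA with a symbol and a mean of at least 50 CPM, the 5 nearest to the median of the members were Zc3h10 (0.144), Spata48 (0.148), Gm28437 (0.150), Rpl27a (0.150) and Rps20 (0.152), in log2 units. Gm28437 is the nuclear copy of mt-Co3. The members themselves lay between 0.0616 for mt-Co3 and 0.408 for mt-Cytb from their own median. Zc3h10 had 34.8 to 49.7 CPM in RS and 81.1 to 125 CPM in ES, and Rps20, a ribosomal protein mRNA, had 933 to 1311 CPM in RS and 2051 to 2911 CPM in ES.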

How the data were processed

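Direct RNA libraries of 4 groups with 3 replicates each were used as labelled. Per the study's methods, the authors called bases with Guppy, aligned reads with minimap2 (2.20-r1061 in the submitters' processing notes) to GENCODE vM17 genes on build GRCm38.p6, kept reads whose tail passed Nanopolish, demultiplexed with Deeplexicon, and kept those contigs that reached 10 reads in 2 or more replicates of a condition. The deposited counts are whole reads per contig, not normalized. Their DESeq2 tables (fold changes, p-values) served only to name contigs. A read without a measurable tail is not in the counts, which can affect short-tailed mitochondrial mRNAs.

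Positions, transcript sequences and types came from GENCODE vM21 on the same build. All 11 mitochondrial transcripts equal the GRCm38 sequence at their coordinates. Nuclear copies were found with blastn 2.17.0 (at least 95% identity over at least 80% of the contig). Of the contigs, 11831 reached 10 reads in 2 or more libraries of 1 group and were tested with edgeR 4.0.16 (R 4.3.3): TMM, a quasi-likelihood fit of all 12 libraries with 1 mean per group and 5 comparisons. DESeq2 1.42.0, other scalings and filters, summed genes, merged copies, a replicate block and leaving out each library were alternatives. The fit was tested on simulated counts. The SE is the log2 change divided by the square root of F.

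Replicate numbers paired libraries (correlation of deviations from group means over 3494 contigs above 0.1 in each of 3 pairs) between genotypes in RS (0.599 to 0.846) and between stages in dcat/dcat (0.501 to 0.679). They did not between stages in wt/wt (−0.257 to 0.604) or between genotypes in ES (0.08 to 0.742). Per the methods, each sorting session held 1 mouse of each genotype and 1 mouse gave all its germ cell types. RS and ES libraries of a genotype thus share mice, but whether the same number marks the same mice is not given in the sources used here. Named genes were the members, other mitochondrial contigs and copies, the nuclear contig with the smallest q in each direction of each list in wt/wt, and Mtpap, Lrpprc, Slirp and Tfam by most counts. Polrmt and Pnpt1, also in the rule, are not analysed here. Members and lists were chosen with earlier results of these data known.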

Additional observations from a re-analysis of the deposited data

How the results depend on the processing

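Of 23 alternatives to the main settings, 12 of them leaving out 1 library, 22 called 9 of 9 mRNAs higher in ES in wt/wt (7 with total counts) and all 23 did so in dcat/dcat; 0 of 9 were called between genotypes or for the interaction in any. Over all contigs, calls in wt/wt numbered 4771 with the main settings, 7363 with total counts and 2588 of 3719 tested with at least 10 counts in every library, where the members' log2 changes were 0.67 to 1.63. With a replicate block, 9 of 9 were called in both genotypes, with log2 changes of 0.99 to 1.92 in wt/wt and 1.03 to 2.10 in dcat/dcat. Outside the 10 most abundant contigs, the summed share gained 0.801 percentage points in wt/wt and 1.01 in dcat/dcat, against 0.446 and 0.628 over all counts. Leaving out 1 library gave 0.392 to 0.487 and 0.437 to 0.725.

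The log2 differences between genotypes in RS were near 0 and changed sign easily. For mt-Cytb (0.01) they were −0.00465 with total counts, −0.00825 with no filter and −0.00113 with at least 10 counts in every library, and for mt-Nd6 (0.02) −0.0155 with the replicate block. Leaving out 1 library gave, in RS, −0.217 to 0.02772 (mt-Nd1), −0.0902 to 0.228 (mt-Nd2), −0.05403 to 0.136 (mt-Co2), −0.115 to 0.05567 (mt-Atp6), −0.06986 to 0.08517 (mt-Co3), −0.127 to 0.13 (mt-Nd3), −0.07432 to 0.217 (mt-Nd4), −0.124 to 0.005106 (mt-Nd5), −0.203 to 0.182 (mt-Nd6) and −0.115 to 0.0987 (mt-Cytb). In ES it gave −0.05711 to 0.224 (mt-Nd1), −0.0194 to 0.251 (mt-Nd2), −0.06192 to 0.192 (mt-Co2), −0.02499 to 0.208 (mt-Atp6), −0.04724 to 0.211 (mt-Co3), −0.0657 to 0.315 (mt-Nd3), −0.06302 to 0.161 (mt-Nd4) and −0.08624 to 0.306 (mt-Nd5). The cause was not tested.

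Each group has 3 libraries, so p-values rest on the spread between 3 pools of mice. Depth limits mt-Nd5 (25 to 64 reads per library) most. The size of the stage change depends on the scaling, and the cause was not tested. Somatic markers, the share of reads on nuclear copies and tail selection were measured or stated beside the results, and their part in them was not tested.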
